A study of Arabidopsis with 12 samples.

Results

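The shade response of bzip59 seedlings was measured as the difference in transcript levels between bzip59 kept for 2 h in shade and bzip59 kept in white light. bzip59 is the T-DNA insertion line SALK_024459 of Arabidopsis thaliana, 1 allele of the transcription factor gene bZIP59. Both groups held 3 libraries of whole seedlings, so the comparison uses 6 of the 12 libraries of the study. Seedlings of both groups were 7 days old and had grown in continuous white light, and shade lowered the ratio of red to far-red light to 0.65. The other 6 libraries came from the wild type Col-0, with 3 libraries in shade and 3 in white light under the same conditions. They are used here to show where the mutant differs. Transcript levels are given in TPM, a unit scaled to transcript length and to the size of the library. The table holds 32833 genes, and the 19591 with a mean level of 1 TPM or more in the 6 bzip59 libraries were tested.

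Plants read shade as a fall in the ratio of red to far-red light, which turns phytochrome B into its inactive form. Phytochrome-interacting factors (PIFs), which active phytochrome B holds back, then switch on genes of auxin synthesis, and stems and petioles elongate. Brakes on this response, such as HFR1, PIL1 and PAR1, are switched on by the same factors and bind them in return. bZIP59 belongs to group I of the bZIP family and is known from callus formation, where it acts together with LBD proteins.

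Changes are log2 differences of TPM + 1 between shade and white light, a scale on which the change of weakly expressed genes is understated. The 95% confidence interval of a change extended, at the median, 0.41 to either side. They come from a limma fit across all tested genes and all 12 libraries. The call threshold was a p of 0.05 after Benjamini-Hochberg adjustment. Separate growth of the seedlings behind the 3 libraries of a group is not stated in the labels, and each p-value therefore measures the spread between these samples, which may be technical. TPM keeps no read counts, so the depth behind the values is unknown. Between 18950 and 19509 genes reached 1 TPM in a bzip59 library, and replicates within the 4 groups correlated with Pearson's r between 0.945 and 0.981 across genes. White light 2 stood apart among the bzip59 libraries, with a TMM scaling factor of 0.833 and a Spearman correlation of -0.577 across genes between its deviation from the group mean and gene length. Shade 2 had a summed level of 1260.0 TPM over the list of abscisic acid and dehydration genes, and shade 1 and shade 3 had 621 and 579.6 TPM. Genes of dark and sugar starvation summed to 815 TPM in shade 2, against 1448 and 1187 TPM in the other shade libraries. This was not limited to bzip59, since Col-0 shade 1 differed from Col-0 shade 2 and shade 3 in the same directions. Its total was 1322 TPM on the first of these lists, where they had 585 and 671 TPM. On the starvation list it had 872 TPM, and they had 1121 and 1089 TPM. The part of these library differences in the counts below was not tested, beyond leaving out single libraries, and bzip59 white light 2 and bzip59 shade 2 together.

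The median change of all 19591 genes was 0.11 in bzip59, and -0.00 with TMM factors. Each change below was tested against 0, so the calls do not allow for this offset. In Col-0 the median was -0.01. Shade changed 2018 genes in bzip59, which is 10.3% of those tested. Of these 1284 (6.55%) rose and 734 (3.75%) fell. With TMM factors 922 (4.71%) rose and 1131 (5.77%) fell, so that the balance of rises and falls depends on the scaling. Of the 1284 rises 882 kept their call with TMM factors, and of the 734 falls 726 did. Without white light 2 and shade 2 there were 821 rises and 574 falls. Leaving out shade 1 gave 535 and 343, shade 3 gave 558 and 346, white light 3 gave 751 and 391, white light 2 gave 850 and 564, and white light 1 gave 2483 and 851. The 492 rises and 292 falls that were called in each of the 6 fits without 1 bzip59 library were 38.3% and 39.8% of all. Most called changes were small. Rises had a median of 0.76 on the log2 scale and falls a median size of 0.89, and 681 genes (3.48%) were called with a size of at least 1.

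bZIP59 itself (AT2G31370, listed by RefSeq as POSF21) checks the labels. It measured 7.52, 6.15 and 8.32 TPM in bzip59 shade, 3.85, 5.47 and 3.12 TPM in bzip59 white light, 26.3, 23.1 and 19.9 TPM in Col-0 shade and 17.5, 22.6 and 21.6 TPM in Col-0 white light. Every bzip59 library was below every Col-0 library. The residual transcript was higher in shade than in white light in bzip59, without overlap (log2 0.71, SE 0.18, limma adjusted p = 0.0307). This call ended with TMM factors (limma adjusted p = 0.08) and without bzip59 shade 1, bzip59 shade 3 or bzip59 white light 3 (limma adjusted p = 0.107, 0.13 and 0.114; range over alternatives 0.00499 to 0.13). Transcript 7 of the gene was listed at 0 in all bzip59 shade libraries and at 0.12, 0.1 and 0.16 TPM in bzip59 white light. It reached 14.9, 15.8 and 8.84 TPM in Col-0 shade and 5.22, 18.0 and 12.1 TPM in Col-0 white light. Transcript 1 measured 4.28, 4.4 and 5.66 TPM in bzip59 shade and 1.82, 3.84 and 1.24 TPM in bzip59 white light. In Col-0 transcript 1 held 0, 0.66 and 4.49 TPM in shade and 0, 0 and 2.20 TPM in white light. How reads were assigned to transcripts is not stated in the labels.

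Described first are the 12 called rises and the 12 called falls that were largest among genes whose shade and white-light libraries did not overlap in TPM. The largest rise was that of FLP1 (AT4G31380), which is related to a flowering-promoting factor. It measured 97.1, 103 and 100.4 TPM in shade, against 0.55, 0.27 and 0 TPM in white light (log2 6.33, SE 0.23, limma adjusted p = 3.56e-08). IAA29, an Aux/IAA repressor of auxin response, measured 135, 103 and 143 TPM in shade, against 1.03, 0.58 and 1.01 TPM in white light (log2 6.09, SE 0.17, limma adjusted p = 5.78e-09). Both were nearly silent in white light and well expressed in every shade library. The bHLH gene BHLH87 measured 73.5, 56.8 and 72.5 TPM in shade, against 1.49, 1.81 and 1.16 TPM in white light (log2 4.78, SE 0.17, limma adjusted p = 3.56e-08). ST2A, a sulfotransferase that inactivates a jasmonate, measured 45.2, 61.7 and 42 TPM in shade, against 1.9, 0.97 and 1.24 TPM in white light (log2 4.42, SE 0.18, limma adjusted p = 8.64e-08). The auxin-conjugating enzyme gene GH3.3 measured 88.5, 92.1 and 104 TPM in shade, against 5.06, 2.41 and 3.77 TPM in white light (log2 4.37, SE 0.19, limma adjusted p = 1.11e-07). In these 3 genes the lowest shade library was far above the highest white-light library. ACS8, an enzyme of ethylene synthesis, measured 19, 17.8 and 21.5 TPM in shade, against 0.28, 0.14 and 0.23 TPM in white light (log2 4.07, SE 0.13, limma adjusted p = 2.15e-08), and so was barely detected in white light. The protein phosphatase 2C gene AT5G02760 reached the highest level of this group, with 375, 269 and 422 TPM in shade, against 19.7, 14.4 and 21 TPM in white light (log2 4.19, SE 0.19, limma adjusted p = 1.9e-07). IAA19, the Rossmann-fold gene AT5G02540, the zinc-finger gene TZF5 and AT5G62280 rose by between 4.25 and 4.48 on the log2 scale. In AT5G02540, AT5G62280 and TZF5 shade 2 was the lowest of the shade libraries. The noncoding RNA gene AT4G06665 measured 20.1, 7.33 and 23.8 TPM in shade and was listed at 0 in all white-light libraries (limma adjusted p = 0.000127).

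**Figure D1:**
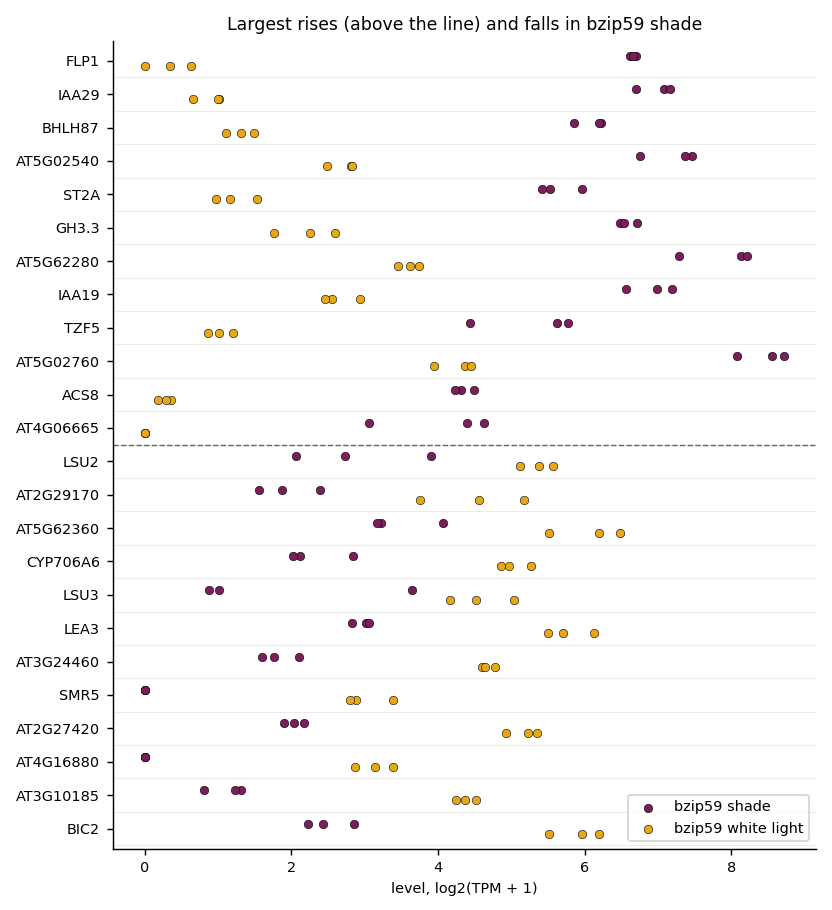
Level of the 12 genes with the largest rises and the 12 with the largest falls among called genes whose bzip59 groups did not overlap, as log2(TPM + 1) on the horizontal axis, with a point for each library and the genes down the page. Shade libraries are drawn above white-light libraries in each gene. The 3 shade points of each gene lie apart from the 3 white-light points because the genes were chosen that way. FLP1 shows the widest gap, with a change of 6.33, and LSU3 has a shade point, that of shade 2, near its white-light points.

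Among the falls BIC2, an inhibitor of cryptochrome photoreceptors, changed most. It measured 3.69, 6.24 and 4.39 TPM in shade, against 44.9, 72.6 and 61.6 TPM in white light (log2 -3.39, SE 0.20, limma adjusted p = 1.89e-06). AT3G10185, of a gibberellin-regulated family, measured 1.49, 0.75 and 1.34 TPM in shade, against 21.9, 18.1 and 19.7 TPM in white light (log2 -3.26, SE 0.57, limma adjusted p = 0.00392), and the cysteine proteinase gene AT2G27420 measured 3.12, 3.5 and 2.73 TPM in shade, against 36.7, 29.4 and 39.7 TPM in white light (log2 -3.13, SE 0.28, limma adjusted p = 4.85e-05). For each of these the shade libraries were close together and low. The leucine-rich repeat gene AT4G16880 was listed at 0 in all shade libraries and measured 9.49, 7.87 and 6.33 TPM in white light (limma adjusted p = 4.87e-07). SMR5, an inhibitor of cyclin-dependent kinases, was likewise listed at 0 in shade and measured 6.39, 9.47 and 5.95 TPM in white light (limma adjusted p = 0.00358). LEA3 (AT1G02820), a late embryogenesis abundant protein, measured 7.1, 6.09 and 7.38 TPM in shade, against 44.5, 68.9 and 51.2 TPM in white light (log2 -2.81, SE 0.23, limma adjusted p = 2.69e-05). The cytochrome P450 gene CYP706A6, the invertase or pectin methylesterase inhibitor gene AT5G62360, AT3G24460 and AT2G29170 fell by between 2.55 and 2.85 on the log2 scale. LSU2 and LSU3, genes that respond to low sulfur, complete the group and are described with the sulfur genes. Of these 24 genes 22 were also called in the same direction in Col-0, and the exceptions were AT4G06665 and SMR5. A pair of called falls of similar size had overlapping bzip59 groups and so are not among the 24, and neither was called in Col-0. The seed albumin gene SESA5 measured 20.6, 2.48 and 0.16 TPM in shade, against 76.4, 49.3 and 11.9 TPM in white light (log2 -3.06, SE 0.87, limma adjusted p = 0.0455). It was called in 6 of 24 alternatives (range of limma adjusted p 0.00466 to 0.226), and of the fits without a single library only those without bzip59 shade 1 and without bzip59 white light 3 kept the call. The snoRNA gene AT4G06705 measured 0, 0 and 2.24 TPM in shade, against 2.2, 27.6 and 7.69 TPM in white light (log2 -2.65, SE 0.65, limma adjusted p = 0.0257). All Col-0 libraries listed it at 0. Its call ended without bzip59 shade 1, bzip59 shade 2, bzip59 white light 2 or bzip59 white light 3 (limma adjusted p = 0.107, 0.0756, 0.0699 and 0.0705; range over alternatives 0.00379 to 0.145), and it was named after its values were seen.

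The called genes differed in level from the rest, and the falls were shorter. The median gene length was 2450 bases for rises, 1710 bases for falls and 2310 bases for all tested genes. In 9 refits, 1 bzip59 library was left out, or the TMM, quantile or length-trend scaling was used. The 481 rises called in all 9 had a median of 2240 bases, and the 292 falls 1660 bases. The rises that held were thus not longer than the rest. Removing each library's trend with gene length gave 1180 rises and 1130 falls. The share of genes called was 4.75% at a mean of 1 to 5 TPM, 10.8% at 5 to 20 TPM, 14.9% at 20 to 100 TPM and 11.5% at 100 TPM and above. Protein-coding genes made up 98.7% of the rises and 96.6% of the falls, against 95% of all tested genes.

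The pathways were followed through 53 lists holding 898 genes, of which 754 passed the level filter and were tested. Of these 175 rose and 58 fell. The counts of each list below are set beside the 6.55% and 3.75% of all genes. Lists and members were chosen with earlier results of these data known. A share above that of all genes may thus be in part built in, and it describes the list and tests nothing.

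**Figure D2:**
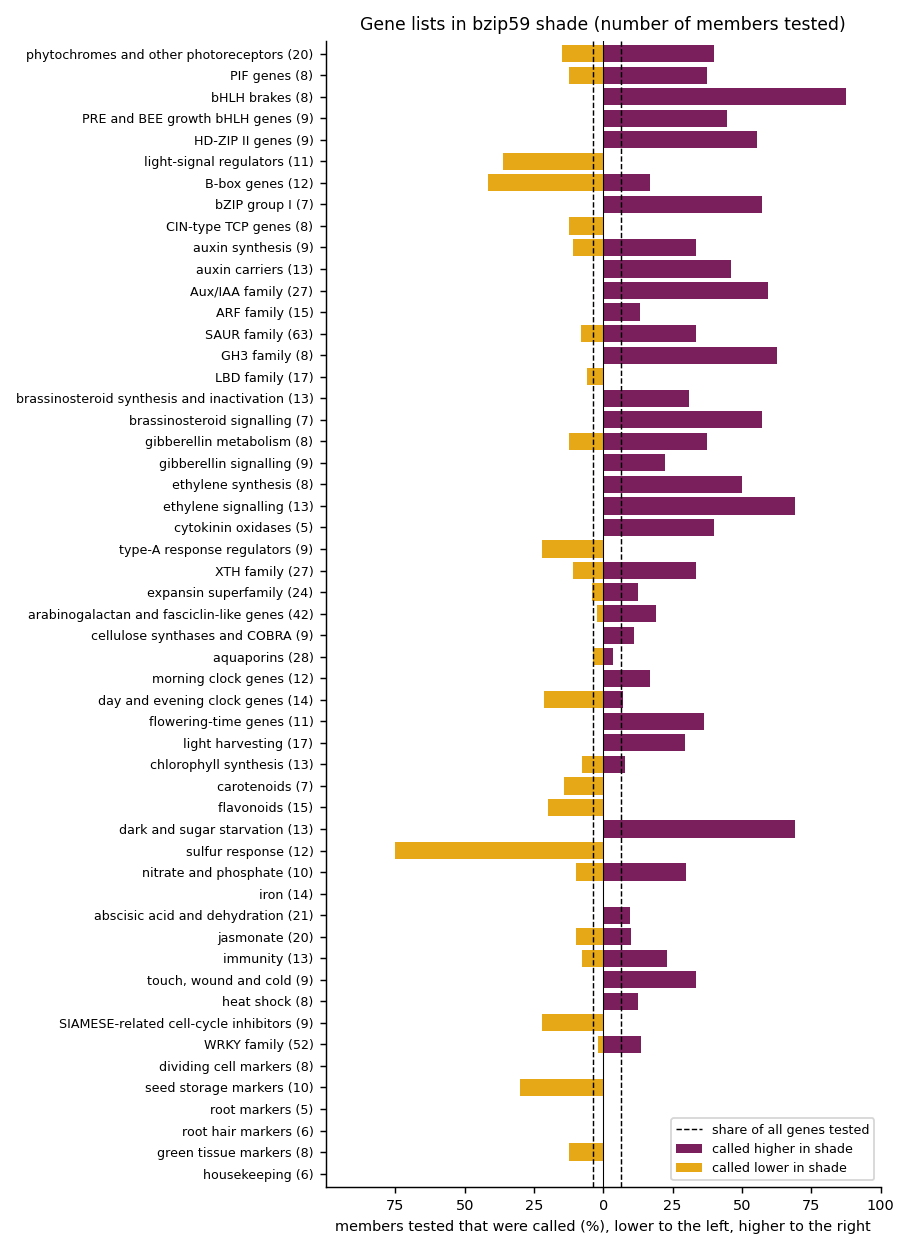
Share of tested members called higher in shade (bars to the right) and lower in shade (bars to the left) in bzip59 for each of the 53 gene lists, in percent, with the number of members tested beside the name. Dashed lines mark the shares among all genes tested, 6.55% higher and 3.75% lower. The lists were chosen with earlier results of these data known. The longest bars are the bHLH brakes to the right, with 7 of 8, and the sulfur response to the left, with 9 of 12.

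Light perception was the first step examined. Of 20 genes of photoreceptors and their partners 8 rose and 3 fell. PHYA, the photoreceptor of far-red light, measured 61.3, 54.1 and 60.1 TPM in shade, against 20.9, 10.3 and 16.8 TPM in white light (log2 1.86, SE 0.25, limma adjusted p = 0.000816). PHYB, the phytochrome that senses the red to far-red ratio, measured 31.9, 33.2 and 35.7 TPM in shade, against 19.1, 8.4 and 15.7 TPM in white light (log2 1.24, SE 0.23, limma adjusted p = 0.00583). Both were higher in every shade library than in any white-light library. PKS4, a phytochrome kinase substrate known from phototropism, measured 21.6, 12.2 and 23.6 TPM in shade, against 1.66, 1.43 and 1.87 TPM in white light (log2 2.88, SE 0.22, limma adjusted p = 1.83e-05), and PKS2 rose by 1.46 (SE 0.14, limma adjusted p = 6.93e-05). The falls included BIC2 and its relative BIC1, which measured 8.6, 12 and 8.36 TPM in shade, against 32, 39.1 and 37.8 TPM in white light (log2 -1.82, SE 0.19, limma adjusted p = 0.000162).

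Among 8 PIF genes 3 rose and 1 fell. PIF7, the PIF that acts most strongly in shade, fell. It measured 8.61, 6.49 and 8.45 TPM in shade, against 18.1, 17.1 and 21.5 TPM in white light (log2 -1.17, SE 0.14, limma adjusted p = 0.000304). PIF3 measured 16.2, 11.8 and 15.5 TPM in shade, against 6.35, 4.27 and 5.3 TPM in white light (log2 1.30, SE 0.19, limma adjusted p = 0.00134) and PIF5 measured 25.2, 19 and 26.1 TPM in shade, against 13.4, 11.2 and 13.3 TPM in white light (log2 0.83, SE 0.15, limma adjusted p = 0.00409), and in both every shade library was above every white-light library. PIF6 was the third rise, at 1.56. PIF4, best known from warm temperature, measured 10.7, 7.36 and 12.6 TPM in shade, against 11.1, 10.3 and 14.2 TPM in white light, with overlapping groups (log2 -0.22, limma adjusted p = 0.637). In Col-0 PIF7 was also lower in shade (log2 -2.07, SE 0.14, limma adjusted p = 4.53e-06) and PIF5 in Col-0 measured 27, 24.1 and 21.6 TPM in shade, against 28.3, 23.3 and 24.5 TPM in white light. The unadjusted interaction p was 0.000576 for PIF7 and 0.00101 for PIF5, and neither passed adjustment over all genes (limma adjusted p = 0.537 and 0.537).

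Of 8 bHLH brakes 7 rose and 0 fell, with a median of 2.40 on the log2 scale. With TMM factors 5 of them rose. PIL1 measured 23.5, 20.6 and 21.8 TPM in shade, against 0.84, 0.16 and 0.71 TPM in white light (log2 3.90, SE 0.19, limma adjusted p = 2.85e-07), and HFR1 measured 56.5, 42.3 and 60.9 TPM in shade, against 4.17, 5.15 and 4.79 TPM in white light (log2 3.24, SE 0.18, limma adjusted p = 8.03e-07). PAR1 measured 78, 42.5 and 68.1 TPM in shade, against 7.96, 9.64 and 6.05 TPM in white light (log2 2.82, SE 0.35, limma adjusted p = 0.000457). In HFR1 and PAR1 shade 2 was the lowest shade library, although still above all of white light. Of 9 PRE and BEE genes, small bHLH proteins that promote growth, 4 rose and 0 fell (median 0.80). BEE1, a gene of brassinosteroid response, measured 72.4, 55 and 81.9 TPM in shade, against 8.86, 7.94 and 9.71 TPM in white light (log2 2.83, SE 0.21, limma adjusted p = 1.49e-05). PRE6 measured 107, 78 and 108 TPM in shade, against 18.3, 22.9 and 22.5 TPM in white light (log2 2.14, SE 0.20, limma adjusted p = 7.1e-05), and BEE3 rose by 2.06 (SE 0.21, limma adjusted p = 0.000111). Among 9 HD-ZIP II genes 5 rose and 0 fell, or 5 and 1 with TMM factors. ATHB2, a homeodomain gene used as a marker of shade, measured 103, 73.8 and 105 TPM in shade, against 6.81, 5.85 and 5.84 TPM in white light (log2 3.71, SE 0.16, limma adjusted p = 1.55e-07), and its relative HAT2 measured 88.9, 81.9 and 97.5 TPM in shade, against 16.9, 17 and 15.3 TPM in white light (log2 2.38, SE 0.15, limma adjusted p = 3.89e-06). HAT1 rose by 0.99 (SE 0.15, limma adjusted p = 0.00173).

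Of 11 regulators of light signalling 0 rose and 4 fell (median -0.16), and 3 fell without white light 2 and shade 2. HYH, a bZIP relative of HY5 that promotes seedling greening, measured 52.6, 53.2 and 48.1 TPM in shade, against 84.9, 96.1 and 96.5 TPM in white light (log2 -0.84, SE 0.14, limma adjusted p = 0.00346). HY5 itself measured 18.4, 24.6 and 13.3 TPM in shade, against 27.4, 36.6 and 31 TPM in white light (log2 -0.75, SE 0.19, limma adjusted p = 0.0251), with shade 2 closest to white light. Its call ended without bzip59 shade 1, bzip59 shade 3, bzip59 white light 2 or bzip59 white light 3 (limma adjusted p = 0.0827, 0.0963, 0.0832 and 0.07; range over alternatives 0.00526 to 0.0977). SPA3, a partner of the ubiquitin ligase COP1, fell by 0.68 on the log2 scale (limma adjusted p = 0.0122), and its call ended without bzip59 shade 1 or bzip59 white light 3 (limma adjusted p = 0.0664 and 0.0549; range over alternatives 0.00148 to 0.0664). Among 12 B-box genes 2 rose and 5 fell. BBX31 measured 1.41, 2.48 and 1.13 TPM in shade, against 7.42, 11.8 and 7.33 TPM in white light (log2 -1.88, SE 0.23, limma adjusted p = 0.0005) and BBX32 measured 1.5, 1.29 and 1.13 TPM in shade, against 6.04, 7.08 and 6.78 TPM in white light (log2 -1.73, SE 0.18, limma adjusted p = 0.000119). The rises were BBX28, with 50.0, 36.3 and 45.3 TPM in shade, against 12.7, 14.6 and 15.2 TPM in white light (log2 1.56, SE 0.24, limma adjusted p = 0.00205), and BBX21, with 82.5, 73.3 and 80.5 TPM in shade, against 49.7, 33.2 and 38 TPM in white light (log2 0.97, SE 0.17, limma adjusted p = 0.0043). BBX25, the gene at the locus next to bZIP59, measured 39.1, 42 and 42.7 TPM in shade, against 38.5, 39.2 and 41.1 TPM in white light, and its groups lay within 5 TPM of each other (log2 0.06, limma adjusted p = 0.843).

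Among the 7 tested genes of bZIP group I, the family of bZIP59, 4 rose and 0 fell. With TMM factors 3 rose. BZIP69 measured 19.1, 17.9 and 21.2 TPM in shade, against 10.9, 7.89 and 10.2 TPM in white light (log2 0.95, SE 0.13, limma adjusted p = 0.000836), and BZIP52 measured 14.7, 14.1 and 17.6 TPM in shade, against 9.65, 9.23 and 9.95 TPM in white light (log2 0.63, SE 0.12, limma adjusted p = 0.00609). bZIP59 was the third rise. BZIP29 was the fourth, at 0.60 (limma adjusted p = 0.0403), and its call ended without Col-0 shade 3, Col-0 white light 1, Col-0 white light 3, bzip59 shade 1, bzip59 shade 2, bzip59 shade 3, bzip59 white light 2 or bzip59 white light 3 (limma adjusted p = 0.0585, 0.0587, 0.0551, 0.103, 0.0977, 0.133, 0.103 and 0.0876; range over alternatives 0.0124 to 0.187). Every shade library was above every white-light library in all 7 genes, against 32.1% of all tested genes without overlap in either direction. Of 17 LBD genes, whose proteins act with bZIP59 in callus, 0 rose and 1 fell (median -0.10). LBD21 was the gene that fell, with 13.4, 14.7 and 12.9 TPM in shade, against 25.1, 34.3 and 26.3 TPM in white light (limma adjusted p = 0.0038). Without white light 2 and shade 2 there were 2 rises in this list.

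Auxin genes were followed from synthesis to response. Of 9 synthesis genes 3 rose and 1 fell. The YUC enzymes carry out the last step of auxin synthesis. YUC8 measured 33.9, 25.9 and 31.8 TPM in shade, against 1.76, 1.41 and 1.79 TPM in white light (log2 3.56, SE 0.15, limma adjusted p = 1.09e-07), and YUC9 measured 9.48, 9.11 and 9.11 TPM in shade, against 1.26, 1.15 and 1.01 TPM in white light (log2 2.26, SE 0.18, limma adjusted p = 2.34e-05). YUC2 measured 11, 9.68 and 9.72 TPM in shade, against 2.79, 2.59 and 3.14 TPM in white light (log2 1.54, SE 0.16, limma adjusted p = 0.000131). All 3 were low in white light and well separated. TAA1, which acts one step before the YUC enzymes, measured 6.41, 6.54 and 5.03 TPM in shade, against 14.3, 8.55 and 14.8 TPM in white light (log2 -0.93, SE 0.22, limma adjusted p = 0.0235). Its call ended without bzip59 shade 1, bzip59 shade 3 or bzip59 white light 3 (limma adjusted p = 0.0668, 0.104 and 0.0922; range over alternatives 0.00614 to 0.104).

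Of 13 auxin carriers 6 rose and 0 fell, and 4 rose without white light 2 and shade 2. The efflux carrier gene PIN3, which moves auxin to the outer tissues of the stem, measured 118, 112 and 131 TPM in shade, against 38, 30.8 and 40.4 TPM in white light (log2 1.70, SE 0.15, limma adjusted p = 3.62e-05). PIN7 measured 101, 75 and 113 TPM in shade, against 38.2, 25.4 and 36.9 TPM in white light (log2 1.50, SE 0.19, limma adjusted p = 0.000511), and the influx carrier gene AUX1 measured 82.5, 69.2 and 80.1 TPM in shade, against 39.4, 25.5 and 35.3 TPM in white light (log2 1.20, SE 0.16, limma adjusted p = 0.000815). PIN4 rose by 0.99 (SE 0.18, limma adjusted p = 0.00438). White light 2 was the lowest white-light library in these 4 genes. Without white light 2 and shade 2 the calls of PIN3, PIN7, AUX1 and PIN4 were kept.

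The Aux/IAA repressors, which are themselves switched on by auxin, rose in 16 of 27 cases and fell in 0 (median 0.77). With TMM factors 15 rose and 1 fell. IAA2 measured 532, 417 and 571 TPM in shade, against 55.8, 70.8 and 67.4 TPM in white light (log2 2.95, SE 0.15, limma adjusted p = 4.63e-07), IAA5 measured 12.2, 11.9 and 17.7 TPM in shade, against 0.76, 0.86 and 1.09 TPM in white light (log2 2.95, SE 0.16, limma adjusted p = 8.03e-07), and IAA7 measured 486, 373 and 489 TPM in shade, against 155, 147 and 173 TPM in white light (log2 1.49, SE 0.15, limma adjusted p = 0.000108). The called rises spanned 0.58 to 6.09 on the log2 scale. The auxin response factors are held back by the Aux/IAA proteins. Of 15 of their genes 2 rose and 0 fell (median 0.25), with 1 rise left when white light 2 and shade 2 were left out. ARF18 measured 24.1, 18 and 24.8 TPM in shade, against 7.49, 7.34 and 7.28 TPM in white light (log2 1.46, SE 0.14, limma adjusted p = 9.27e-05). Of 8 GH3 genes 5 rose and 0 fell (median 1.45). GH3.5 measured 86, 75.5 and 88.7 TPM in shade, against 14.2, 8.61 and 11.3 TPM in white light (log2 2.79, SE 0.18, limma adjusted p = 2.94e-06) and GH3.2 measured 20.5, 14.8 and 17 TPM in shade, against 3.61, 2.35 and 2.61 TPM in white light (log2 2.26, SE 0.18, limma adjusted p = 1.87e-05).

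Of 63 SAUR genes, small auxin-induced proteins that promote cell expansion, 21 rose and 5 fell (median 0.45). SAUR22 measured 33.7, 21.8 and 39.6 TPM in shade, against 1.88, 3.25 and 1.08 TPM in white light (log2 3.44, SE 0.26, limma adjusted p = 1.27e-05). SAUR28 measured 13.5, 9.37 and 13.5 TPM in shade, against 1.39, 1.79 and 0.7 TPM in white light (log2 2.53, SE 0.22, limma adjusted p = 3.56e-05), and SAUR23 rose by 2.49 (SE 0.22, limma adjusted p = 3.62e-05). In SAUR22 and SAUR28 shade 2 was the lowest shade library. SAUR14 was among the 5 falls, with 30.0, 29.2 and 26.7 TPM in shade, against 69.3, 116 and 87.7 TPM in white light (log2 -1.60, SE 0.18, limma adjusted p = 0.000261). SAUR19 to SAUR24 are close copies of each other, and reads may be shared between such copies, so their separate values are uncertain.

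Brassinosteroid genes were followed from synthesis to signalling. Of 13 genes of synthesis and inactivation 4 rose and 0 fell, and with TMM factors 4 rose and 1 fell. CPD, an enzyme of brassinosteroid synthesis, measured 136, 104 and 131 TPM in shade, against 52.2, 39.9 and 48.2 TPM in white light (log2 1.38, SE 0.14, limma adjusted p = 0.00012). BR6OX2, which acts late in the pathway, measured 24.6, 24.5 and 25.8 TPM in shade, against 13.6, 7.58 and 10.5 TPM in white light (log2 1.20, SE 0.17, limma adjusted p = 0.00104). BAS1, which inactivates brassinosteroids, measured 15.1, 14.7 and 15.9 TPM in shade, against 7.15, 3.12 and 5.2 TPM in white light (log2 1.45, SE 0.30, limma adjusted p = 0.0103), and its call ended without white light 2 and shade 2 (limma adjusted p = 0.0656, range over alternatives 0.00223 to 0.0656). Of 7 signalling genes 4 rose and 0 fell. The receptor gene BRI1 measured 58, 52 and 57.7 TPM in shade, against 28.3, 11.1 and 21.1 TPM in white light (log2 1.52, SE 0.26, limma adjusted p = 0.00373), with white light 2 the lowest library. BZR1, a transcription factor of the pathway, measured 30.2, 27.9 and 32.5 TPM in shade, against 17.6, 14.3 and 15.4 TPM in white light (log2 0.90, SE 0.13, limma adjusted p = 0.00137). BIM1, of the same list, rose by 0.84 (SE 0.13, limma adjusted p = 0.00214).

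Of 8 genes of gibberellin metabolism 3 rose and 1 fell. GA20OX2, an enzyme of synthesis, measured 11.2, 10.3 and 10.9 TPM in shade, against 1.73, 0.74 and 0.89 TPM in white light (log2 2.50, SE 0.20, limma adjusted p = 2.34e-05). GA2OX6, which inactivates gibberellins, measured 54.5, 40.2 and 48.5 TPM in shade, against 8.76, 9.8 and 8.08 TPM in white light (log2 2.29, SE 0.26, limma adjusted p = 0.000261). GA20OX2 and GA2OX6 thus rose in the same libraries. GA3OX2, another gene of synthesis, was called lower (log2 -1.07, SE 0.25, limma adjusted p = 0.018). Without white light 2 and shade 2 the list had 0 falls. GA20OX1 rose by 1.56 (SE 0.25, limma adjusted p = 0.00273). Of 9 signalling genes 2 rose and 0 fell, and with TMM factors 1 rose. GAI, a DELLA repressor of growth, measured 44.6, 37.2 and 48.6 TPM in shade, against 19.1, 13 and 16.6 TPM in white light (log2 1.37, SE 0.15, limma adjusted p = 0.000219).

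Ethylene genes were followed in the same order. Of 8 synthesis genes 4 rose and 0 fell. ACS4 measured 5.37, 6.42 and 7.13 TPM in shade, against 0.3, 0.61 and 0.7 TPM in white light (log2 2.25, SE 0.27, limma adjusted p = 0.000364) beside ACS8, which is given above. ACS11 measured 3.14, 3.28 and 3.87 TPM in shade, against 1.03, 1.89 and 1.13 TPM in white light (log2 0.93, SE 0.21, limma adjusted p = 0.0174), and its call ended without bzip59 shade 1, bzip59 shade 3 or bzip59 white light 3 (limma adjusted p = 0.0535, 0.0828 and 0.0661; range over alternatives 0.0108 to 0.0828). Of 13 signalling genes 9 rose and 0 fell (median 0.93), or 7 without white light 2 and shade 2. EBF2, an F-box gene that directs the breakdown of the transcription factor EIN3, measured 85.8, 64.5 and 91.1 TPM in shade, against 19.3, 15.5 and 20.8 TPM in white light (log2 2.06, SE 0.21, limma adjusted p = 0.000111). ERS1, an ethylene receptor, measured 65.4, 55.9 and 66.1 TPM in shade, against 25.5, 16.7 and 21.9 TPM in white light (log2 1.52, SE 0.18, limma adjusted p = 0.000304), and EIL1, a relative of EIN3, measured 69.9, 57.2 and 75.3 TPM in shade, against 35.4, 37.2 and 41 TPM in white light (log2 0.81, SE 0.12, limma adjusted p = 0.00152). None of the 3 overlapped between shade and white light.

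Of 5 tested cytokinin oxidases, which break the hormone down, 2 rose and 0 fell, or 2 and 1 with TMM factors. CKX5 measured 5.15, 4.72 and 5.22 TPM in shade, against 1.43, 1.35 and 1 TPM in white light (log2 1.42, SE 0.17, limma adjusted p = 0.000363) and CKX6 measured 11.4, 12 and 13.5 TPM in shade, against 5.36, 2.56 and 2.89 TPM in white light (log2 1.57, SE 0.22, limma adjusted p = 0.00111). Of 9 type-A response regulators, which respond to cytokinin and dampen its signal, 0 rose and 2 fell (median -0.51), with 4 falls under TMM factors and 1 without white light 2 and shade 2. ARR7 measured 13, 16.9 and 17.1 TPM in shade, against 24.5, 30.3 and 23.8 TPM in white light (log2 -0.71, SE 0.14, limma adjusted p = 0.00945), and its call ended without bzip59 shade 1 (limma adjusted p = 0.0527; range over alternatives 0.00405 to 0.0527).

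Of 27 XTH genes, which remodel xyloglucan, 9 rose and 3 fell (median 0.22). XTH33 measured 25.1, 22.3 and 29.2 TPM in shade, against 1.64, 1.45 and 1.6 TPM in white light (log2 3.37, SE 0.17, limma adjusted p = 4.51e-07), and XTH22, also known as a touch gene, measured 122, 77.5 and 119.9 TPM in shade, against 9.87, 11.3 and 13 TPM in white light (log2 3.10, SE 0.17, limma adjusted p = 1.01e-06). XTH31 fell, with 28.5, 37.9 and 30.5 TPM in shade, against 90.9, 91.5 and 106 TPM in white light (log2 -1.55, SE 0.17, limma adjusted p = 0.000243). In XTH22 shade 2 was the lowest shade library, and in XTH31 it was the highest. Of 24 expansin genes, which loosen walls, 3 rose and 1 fell, or 3 and 3 with TMM factors. EXLA2 measured 41.1, 35.4 and 43 TPM in shade, against 10.1, 6.74 and 8.56 TPM in white light (log2 2.12, SE 0.15, limma adjusted p = 1e-05), EXLA1 rose by 2.13 (SE 0.20, limma adjusted p = 6.31e-05), and EXPA5 measured 9.44, 14.6 and 12.6 TPM in shade, against 24.5, 32.9 and 34.7 TPM in white light (log2 -1.26, SE 0.21, limma adjusted p = 0.00342). Of 42 arabinogalactan and fasciclin-like genes 8 rose and 1 fell. AGP26 measured 87.9, 73.5 and 92.6 TPM in shade, against 43.1, 39.6 and 41.5 TPM in white light (log2 1.01, SE 0.14, limma adjusted p = 0.00119), FLA18 rose by 0.88, and AGP41 fell by 1.13 on the log2 scale (limma adjusted p = 0.00134). Of 28 aquaporins 1 rose and 1 fell, shares of 3.57% each. PIP2E measured 288, 270.1 and 308 TPM in shade, against 151, 165 and 187 TPM in white light (log2 0.78, SE 0.11, limma adjusted p = 0.00104). Of 9 genes of cellulose synthesis 1 rose and 0 fell, and none rose without white light 2 and shade 2.

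Morning clock genes are active after dawn and in continuous light still cycle for days. Of 12 genes 2 rose and 0 fell in bzip59 (median 0.23), and with TMM factors 2 rose and 1 fell. Without white light 2 and shade 2 there were 5 rises. LNK4 measured 27.9, 20.1 and 23.7 TPM in shade, against 10.4, 11.5 and 10.9 TPM in white light (log2 1.05, SE 0.17, limma adjusted p = 0.00259), and LNK3 measured 28.4, 21.5 and 32.4 TPM in shade, against 11.4, 15.4 and 12.9 TPM in white light (log2 0.98, SE 0.19, limma adjusted p = 0.00624). LNK proteins act with REVEILLE factors on evening genes. CCA1, the repressor at the core of the morning loop, measured 44.2, 30.2 and 43.8 TPM in shade, against 26.5, 18.3 and 30.4 TPM in white light (log2 0.64, limma adjusted p = 0.0585), and its relative LHY measured 49.1, 34.2 and 47.7 TPM in shade, against 37.3, 32.6 and 38.3 TPM in white light (log2 0.25, limma adjusted p = 0.451). RVE4 measured 102, 60.6 and 89.1 TPM in shade, against 54.8, 54 and 55.5 TPM in white light (log2 0.57, limma adjusted p = 0.0516). None of the 3 passed the test. Shade 2 lay within the white-light range for CCA1 and LHY, while the groups of RVE4 did not overlap.

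In Col-0 the same list had 0 rises and 5 falls (median -0.68). There CCA1 measured 33.9, 27.4 and 26.8 TPM in shade, against 49.1, 49.5 and 56.2 TPM in white light (log2 -0.80, SE 0.19, limma adjusted p = 0.0228), and LHY measured 41.6, 29.3 and 28.6 TPM in shade, against 44.5, 72.9 and 53 TPM in white light (log2 -0.75, SE 0.21, limma adjusted p = 0.0403). LNK4 measured 23.3, 28 and 29.2 TPM in shade, against 23.5, 17.3 and 27.3 TPM in white light (log2 0.25, SE 0.17, limma adjusted p = 0.437), and LNK3 measured 21.9, 26 and 26 TPM in shade, against 25.2, 21.6 and 33.1 TPM in white light (log2 -0.09, SE 0.19, limma adjusted p = 0.829). Every Col-0 shade library was thus below every Col-0 white-light library for CCA1 and LHY, while the LNK3 and LNK4 libraries overlapped. The list summed to 396.8, 271.4 and 378.0 TPM in bzip59 shade and to 270.3, 256.8 and 303.2 TPM in bzip59 white light. In Col-0 it summed to 304.4, 301.7 and 290.9 TPM in shade and to 420.7, 487.0 and 485.8 TPM in white light. The bzip59 groups overlapped in this sum, and the white-light libraries of bzip59 were below those of Col-0. The change in bzip59 less that in Col-0 was 1.44 for CCA1 (SE 0.27, limma unadjusted p = 0.000241, limma adjusted p = 0.537). It was 1.40 for LNK2 (limma adjusted p = 0.537) and 1.08 for LNK3 (limma adjusted p = 0.537), and none passed adjustment. The labels give no time of day of harvest, so a difference in clock time between groups cannot be told apart from these values.

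**Figure D3:**
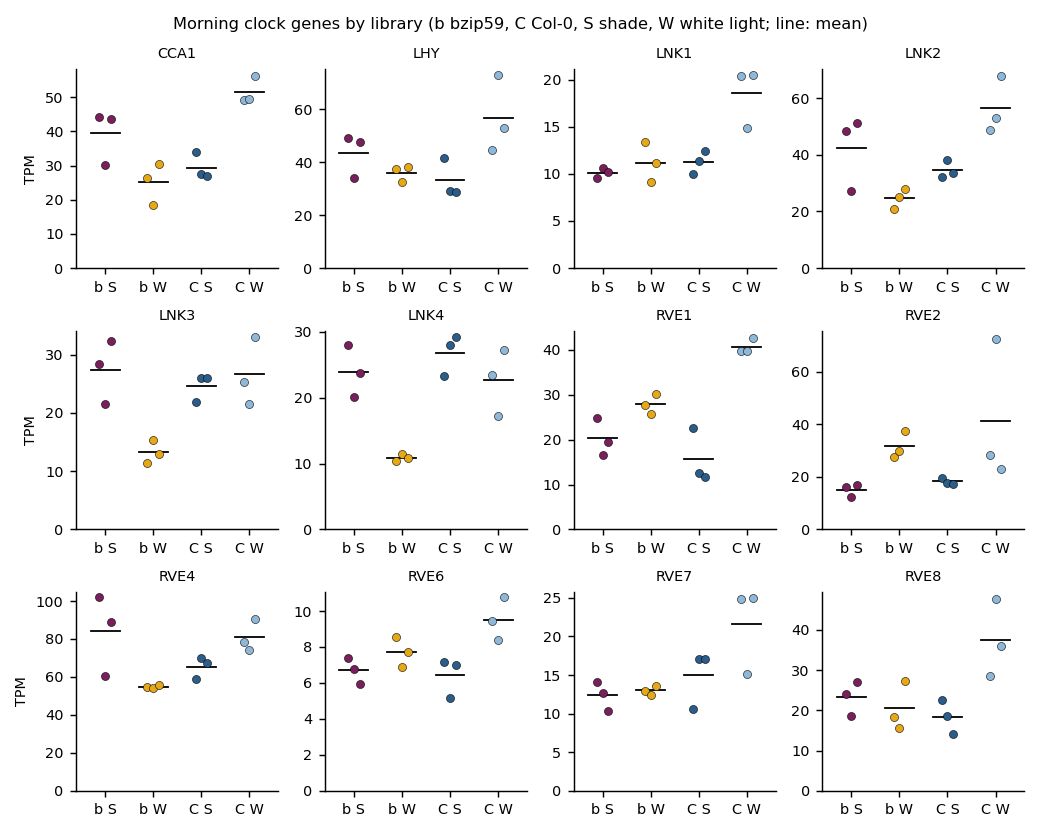
TPM of the 12 morning clock genes in each library, with bzip59 shade, bzip59 white light, Col-0 shade and Col-0 white light from left to right in every panel and a line at the mean of 3 libraries. The means of CCA1 and LNK2 are higher in shade than in white light in bzip59 and lower in shade in Col-0. Their changes are 0.64 and 0.72 in bzip59 and -0.80 and -0.68 in Col-0 on the log2 scale. Neither change in bzip59 was called.

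Among 14 day and evening clock genes 1 rose and 3 fell. ELF4, a component of the evening complex, measured 49.6, 53.3 and 39.5 TPM in shade, against 95.4, 148 and 101 TPM in white light (log2 -1.24, SE 0.16, limma adjusted p = 0.000683), and LUX, another component, measured 32.2, 30.0 and 31.3 TPM in shade, against 16.7, 11.3 and 15.7 TPM in white light (log2 1.06, SE 0.14, limma adjusted p = 0.000816). Genes of 1 complex thus moved in opposite directions. FKF1, a blue-light F-box protein of flowering time, measured 5.66, 5.86 and 4.01 TPM in shade, against 12.7, 10.0 and 12.2 TPM in white light (log2 -1.04, SE 0.16, limma adjusted p = 0.00158), and PRR5 fell by 0.87 on the log2 scale (limma adjusted p = 0.00434). Of 11 flowering-time genes 4 rose and 0 fell. Beside FLP1, COL5 measured 157, 135 and 152 TPM in shade, against 39.7, 31.8 and 34.3 TPM in white light (log2 2.04, SE 0.22, limma adjusted p = 0.000162) and CDF5, a repressor of flowering, measured 12.2, 6.49 and 8.39 TPM in shade, against 0.82, 0.59 and 1.43 TPM in white light (log2 2.35, SE 0.23, limma adjusted p = 8.99e-05). CDF2 was the fourth, with 14.2, 10.8 and 12.7 TPM in shade, against 7.51, 5.73 and 6.97 TPM in white light (log2 0.81, SE 0.14, limma adjusted p = 0.00438). The florigen gene FT measured 1.55, 1.34 and 1.19 TPM in shade, against 1.49, 1.18 and 1.11 TPM in white light, with overlapping groups.

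Light-harvesting genes were called higher in 5 of 17 cases and lower in 0 (median 0.67). With TMM factors 3 rose. LHCB4.2 measured 1929, 1366 and 2016 TPM in shade, against 885, 723 and 857 TPM in white light (log2 1.09, SE 0.19, limma adjusted p = 0.00344), with shade 2 the lowest shade library. LHCB6 measured 2362, 2098 and 2408 TPM in shade, against 1518, 1212 and 1477 TPM in white light (log2 0.71, SE 0.15, limma adjusted p = 0.0101). Its call ended with TMM factors (limma adjusted p = 0.0624) and without bzip59 shade 1 or bzip59 shade 3 (limma adjusted p = 0.0519 and 0.0546; range over alternatives 0.00226 to 0.111). In Col-0 limma called 0 of the 17 genes in either direction (median 0.25), and 3 were higher and 0 lower at an unadjusted p under 0.05. The interaction was called for 0 of them. The list summed to 42788.2, 67330.5 and 69333.9 TPM in Col-0 shade, and 53336.5, 38671.3 and 53672.8 TPM in Col-0 white light. Only Col-0 shade 1 lay within the white-light range. In bzip59 it summed to 64271.0, 44580.5 and 64124.0 TPM in shade, and 38832.8, 36882.5 and 39721.2 TPM in white light. LHCB genes are close copies, so values of single genes are uncertain. Of 13 genes of chlorophyll synthesis 1 rose and 1 fell. CAO, the enzyme that makes chlorophyll b, measured 123, 108 and 125 TPM in shade, against 77.5, 54 and 78.8 TPM in white light (log2 0.77, SE 0.14, limma adjusted p = 0.00635). GLK1, an activator of chloroplast genes, measured 39.6, 58.4 and 47.6 TPM in shade, against 98.2, 103 and 107 TPM in white light (log2 -1.08, SE 0.24, limma adjusted p = 0.0169), and its call ended without bzip59 shade 1, bzip59 shade 3 or bzip59 white light 3 (limma adjusted p = 0.0821, 0.0639 and 0.0596; range over alternatives 0.00437 to 0.0821). Of 15 flavonoid genes 0 rose and 3 fell (median -0.44), with 4 falls under TMM factors and without white light 2 and shade 2. The regulator MYB12 measured 2.98, 2.93 and 2.29 TPM in shade, against 5.91, 7.58 and 5.33 TPM in white light (log2 -0.96, SE 0.17, limma adjusted p = 0.00513). TT7, a hydroxylase of the pathway, fell by 1.43 on the log2 scale (limma adjusted p = 0.0147), and its call ended without bzip59 shade 1, bzip59 shade 3 or bzip59 white light 3 (limma adjusted p = 0.0633, 0.0724 and 0.0538; range over alternatives 0.00396 to 0.0724). The list summed to 684 TPM in shade 2, against 357 and 376 TPM in shade 1 and shade 3. In Col-0 it was shade 1 that was highest, at 701 TPM, with 310 and 348 TPM in Col-0 shade 2 and shade 3.

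Genes of dark and sugar starvation rose in 9 of 13 cases and fell in 0 (median 1.46). With TMM factors 8 rose, and without white light 2 and shade 2 there were 9. SEN1, a gene of darkness and senescence, measured 413, 123 and 295 TPM in shade, against 30.5, 25.5 and 28.6 TPM in white light (log2 3.09, SE 0.49, limma adjusted p = 0.00226). ASN1, the dark-inducible asparagine synthetase, measured 48.5, 20.6 and 38.6 TPM in shade, against 4.72, 3.33 and 6.37 TPM in white light (log2 2.62, SE 0.39, limma adjusted p = 0.00147). In both the shade 2 library was the lowest of the shade group but far above white light. TPS8 and TPS11, of the trehalose-phosphate synthase family that responds to sugar, measured 38.6, 28.9 and 36.1 TPM in shade, against 14.7, 7.97 and 13.8 TPM in white light (log2 1.46, SE 0.21, limma adjusted p = 0.00114) and 33.3, 24.5 and 30.4 TPM in shade, against 8.55, 3.63 and 7.31 TPM in white light (log2 2.07, SE 0.32, limma adjusted p = 0.00185). EXO, a growth gene known from low carbon supply, measured 163, 126 and 154 TPM in shade, against 33.1, 23.1 and 28.1 TPM in white light (log2 2.36, SE 0.16, limma adjusted p = 6.43e-06). In Col-0 the list had 5 rises and 1 fall (median 0.42). TPS8 in Col-0 measured 34.6, 29.5 and 33.7 TPM in shade, against 25.5, 20.1 and 27.6 TPM in white light (log2 0.41, SE 0.21, limma adjusted p = 0.271). The difference of 1.05 between the genotypes for TPS8 did not pass adjustment (unadjusted p = 0.00387, limma adjusted p = 0.537).

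Of 12 sulfur-response genes 9 fell and 0 rose (median -1.83), with the same counts under TMM factors. LSU1, a marker of low sulfur, measured 2.6, 11 and 4.36 TPM in shade, against 28.8, 38 and 21.9 TPM in white light (log2 -2.28, SE 0.37, limma adjusted p = 0.00275), and LSU2 measured 3.18, 14 and 5.66 TPM in shade, against 40.7, 46.4 and 33.8 TPM in white light (log2 -2.45, SE 0.40, limma adjusted p = 0.00286). SDI1, a gene of the low-sulfur response, measured 1.86, 4.42 and 2.51 TPM in shade, against 13.8, 13.4 and 10.8 TPM in white light (log2 -1.84, SE 0.31, limma adjusted p = 0.00312). In all 3 genes shade 2 was the highest shade library. APR2 and APR3, enzymes of sulfate reduction, measured 23.9, 34.6 and 29.9 TPM in shade, against 111, 93.7 and 110.2 TPM in white light (log2 -1.81, SE 0.30, limma adjusted p = 0.0032) and 17.9, 43.5 and 21.4 TPM in shade, against 134, 88 and 129 TPM in white light (log2 -2.12, SE 0.36, limma adjusted p = 0.00367). LSU3 measured 0.84, 11.6 and 1.03 TPM in shade, against 22, 31.8 and 17 TPM in white light (log2 -2.73, SE 0.63, limma adjusted p = 0.0188). Its call ended without bzip59 shade 1, bzip59 shade 3 or bzip59 white light 2 (limma adjusted p = 0.0878, 0.0892 and 0.0691; range over alternatives 0.000372 to 0.0892). The list summed to 103.8, 224.9 and 128.9 TPM in the 3 shade libraries. In Col-0 10 of the 12 genes fell and 0 rose (median -2.07).

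**Figure D4:**
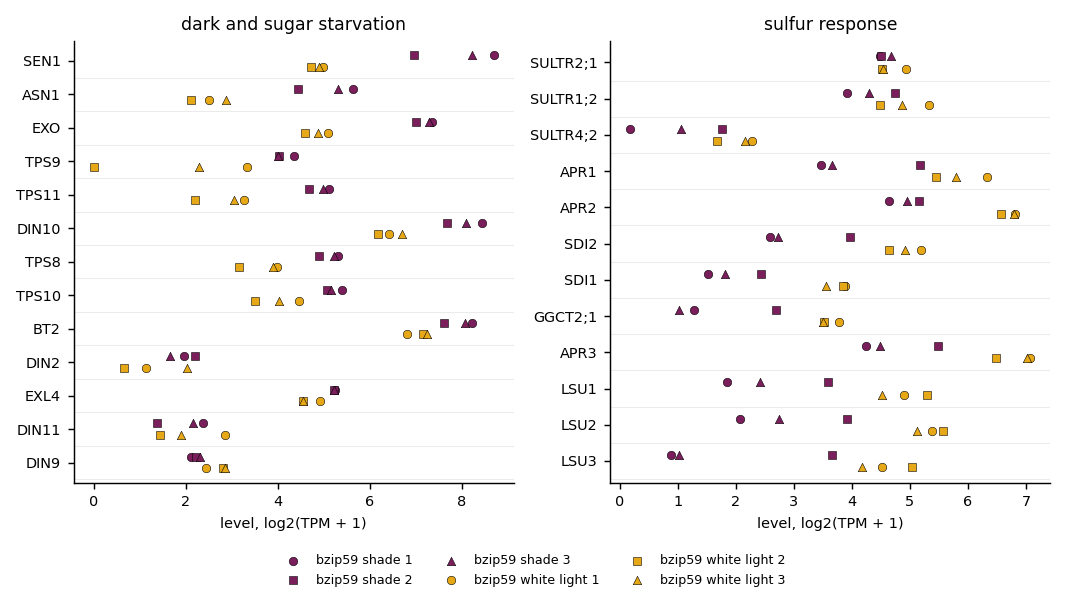
Level as log2(TPM + 1) on the horizontal axis of the genes of dark and sugar starvation (left) and of the sulfur response (right) in the bzip59 libraries, with shade drawn above white light and marker shapes for libraries 1, 2 and 3. Shade points lie to the right of white-light points for most starvation genes and to the left for most sulfur genes, and shade 2 (square) lies closest to white light in SEN1, ASN1, LSU1 and LSU2.

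Of 10 nitrate and phosphate genes 3 rose and 1 fell. NIA1, a nitrate reductase, measured 347, 276 and 349 TPM in shade, against 157, 74.7 and 123 TPM in white light (log2 1.51, SE 0.22, limma adjusted p = 0.00129). SPX1, which rises when phosphate is short, measured 4.35, 5.69 and 5.98 TPM in shade, against 12.1, 20.6 and 16.1 TPM in white light (log2 -1.43, SE 0.20, limma adjusted p = 0.00126). NIA2 measured 765, 589.6 and 791 TPM in shade, against 457, 295 and 443 TPM in white light (log2 0.86, SE 0.17, limma adjusted p = 0.00797). Of 14 iron genes limma called 0 in either direction. At an unadjusted p under 0.05 there were 0 higher and 1 lower, and with TMM factors 1 fell.

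Stress lists were examined next. Of 21 genes of abscisic acid and dehydration 2 rose and 0 fell (median 0.08), and 0 rose without white light 2 and shade 2. The transcription factor gene RD26 measured 29.1, 24 and 19.4 TPM in shade, against 12, 9.48 and 8.68 TPM in white light (log2 1.18, SE 0.24, limma adjusted p = 0.00989), and its call ended without bzip59 shade 1 (limma adjusted p = 0.0542; range over alternatives 0.00433 to 0.0885). Of 20 jasmonate genes 2 rose and 2 fell, with ST2A far above the rest. JAZ9, a repressor of jasmonate response, measured 32.7, 37.9 and 34.1 TPM in shade, against 53.3, 79.7 and 68.7 TPM in white light (log2 -0.91, SE 0.18, limma adjusted p = 0.00825). Of 13 immunity genes 3 rose and 1 fell. WRKY33, a transcription factor of defence, measured 21, 15.8 and 19.9 TPM in shade, against 13.1, 9.46 and 10.6 TPM in white light (log2 0.73, SE 0.14, limma adjusted p = 0.00662), and PAD4, a regulator of immune signalling, fell, with 4.53, 4.99 and 4.21 TPM in shade, against 7.19, 7.73 and 7.54 TPM in white light (log2 -0.61, SE 0.11, limma adjusted p = 0.00635). Of 9 touch, wound and cold genes 3 rose and 0 fell. Beside XTH22 these were TCH3, a calmodulin-like gene, with 242, 139.9 and 252 TPM in shade, against 40.8, 43.8 and 46.9 TPM in white light (log2 2.20, SE 0.31, limma adjusted p = 0.00111), and WRKY40, with 8.18, 4.76 and 8.25 TPM in shade, against 1.01, 1.32 and 1.46 TPM in white light (log2 1.80, SE 0.30, limma adjusted p = 0.00324). Of 52 WRKY genes 7 rose and 1 fell, led by WRKY22, with 18.1, 9.87 and 18.9 TPM in shade, against 3.23, 3.06 and 3.57 TPM in white light (log2 1.91, SE 0.21, limma adjusted p = 0.00023). Of 8 heat-shock genes 1 rose and 0 fell, and 0 rose with TMM factors. Of 8 CIN-type TCP genes, regulators of leaf growth, 0 rose and 1 fell. Of 7 carotenoid genes 0 rose and 1 fell, and 0 fell with TMM factors.

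Of 9 SIAMESE-related inhibitors of the cell cycle 0 rose and 2 fell, SMR5 and SMR1. SMR1 measured 35.9, 35.2 and 42.4 TPM in shade, against 82.4, 118 and 101 TPM in white light (log2 -1.38, SE 0.19, limma adjusted p = 0.00104), with no overlap between the groups. SMR5 measured 0, 0 and 0 TPM in bzip59 shade, 6.39, 9.47 and 5.95 TPM in bzip59 white light, 0.63, 0 and 0 TPM in Col-0 shade and 0.96, 0 and 5.37 TPM in Col-0 white light. It was thus detected in every white-light library of bzip59 and at 0 in 1 white-light library of Col-0. Of 8 markers of dividing cells limma called 0 in either direction, and 0 had an unadjusted p under 0.05. Their median was 0.11, equal to that of all genes.

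Markers of tissues and of seeds were examined last. Seed storage markers, which are high in seeds and fade after germination, fell in 3 of 10 cases and rose in 0 (median -1.66), and in 1 case without white light 2 and shade 2. They summed to 114, 25.2 and 6.46 TPM in bzip59 shade, 301, 128 and 60.0 TPM in bzip59 white light, 12.3, 8.9 and 5.55 TPM in Col-0 shade and 25.2, 23.0 and 17.5 TPM in Col-0 white light. In bzip59 shade 1 lay above white light 3, so the groups overlapped. SESA3, a seed storage albumin, measured 0.81, 0.85 and 0.09 TPM in shade, against 13.3, 1.69 and 5.75 TPM in white light (log2 -2.05, SE 0.48, limma adjusted p = 0.0191). Its call ended without bzip59 shade 1, bzip59 shade 3 or bzip59 white light 3 (limma adjusted p = 0.0527, 0.088 and 0.0655; range over alternatives 0.00161 to 0.088). The part of the seed markers in other changes was not tested, and in whole seedlings fewer cells of a type and less RNA per cell cannot be told apart. Of 5 root markers and 6 root hair markers limma called 0, and 0 had an unadjusted p under 0.05. Their medians were 0.09 and 0.19. Of 8 green tissue markers 0 rose and 1 fell, RBCS1B, with 2862, 2628 and 3133 TPM in shade, against 5168, 7182 and 6461 TPM in white light (log2 -1.12, SE 0.23, limma adjusted p = 0.0106), and 0 fell without white light 2 and shade 2 (limma adjusted p = 0.0903, range over alternatives 0.00237 to 0.0975). Rubisco small-subunit genes are close copies, so this value is uncertain. Of 6 housekeeping genes limma called 0 (median 0.29), and 2 were higher and 0 lower at an unadjusted p under 0.05. They summed to 2179, 2156 and 2181 TPM in shade and to 2100.2, 1439 and 1853 TPM in white light. White light 2 was the lowest library of this sum.

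The response of bzip59 was set beside that of Col-0 to ask whether the mutation changed it. The median change of all genes in bzip59 less that in Col-0 was 0.15, but -0.00 with TMM factors, 0.02 with quantile normalization and 0.00 with the gene length trend removed, so that this offset depends on the scaling. Shade changed 1955 genes in Col-0 (9.98%), with 675 rises (3.45%) and 1280 falls (6.53%). The Col-0 counts depended on single libraries. There were 351 rises and 625 falls without Col-0 shade 3, and 463 and 730 without Col-0 shade 2. Leaving out Col-0 white light 2 gave 430 and 825, and Col-0 white light 1 gave 508 and 897. Without Col-0 shade 1 the counts were 593 and 1475, and without Col-0 white light 3 they were 773 and 1165. The 520 genes that rose in both genotypes were 40.5% of the rises in bzip59 and 77% of those in Col-0. The 524 genes that fell in both were 71.4% of the falls in bzip59 and 40.9% of those in Col-0. These shares moved with the fit, and were not computed without Col-0 shade 1, Col-0 white light 1 or Col-0 white light 3. With TMM factors the shared rises were 56.1% of those in bzip59 and 62.5% of those in Col-0, and the shared falls 63.1% and 55.1%. Without Col-0 shade 3 they were 31.0% and 88.6% for rises and 59.3% and 57.6% for falls, and without Col-0 white light 2 they were 26.9% and 87.4% for rises and 57.9% and 57.5% for falls. 0 genes were called in opposite directions. Of the 1284 rises in bzip59 1204 had the same sign in Col-0, and of the 734 falls 718 had. Both comparisons used libraries of their own. Changes in the 2 genotypes correlated with Pearson's r = 0.637 and Spearman's rho = 0.535 across the 19591 genes, which are not independent replicates.

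The interaction, the change in bzip59 less that in Col-0, was called for 0 of 19591 genes by limma (0%). At an unadjusted p under 0.05 there were 1569 genes, and the smallest limma adjusted p was 0.151. It belonged to AT4G06665, the noncoding RNA, which measured 20.1, 7.33 and 23.8 TPM in bzip59 shade, was listed at 0 in bzip59 white light and in Col-0 shade, and measured 1.43, 0 and 0 TPM in Col-0 white light. The next genes by p did not pass either. AT1G55960, of a lipid-transport family, measured 53.9, 36 and 42.6 TPM in bzip59 shade, 104, 86.6 and 98.4 TPM in bzip59 white light, 35.3, 28.2 and 24.7 TPM in Col-0 shade and 157, 206 and 196 TPM in Col-0 white light. Its change was -1.12 in bzip59 and -2.63 in Col-0, and the interaction missed the threshold (limma adjusted p = 0.41). AT4G31354 and AT1G34630 had unadjusted p of 6.05e-05 and 0.000181. BBX25 in Col-0 measured 33.8, 25.4 and 22.9 TPM in shade, against 48.5, 40.0 and 58.3 TPM in white light (log2 -0.82, SE 0.16, limma adjusted p = 0.00669), and its interaction also failed adjustment (unadjusted p = 0.00217, limma adjusted p = 0.537).

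**Figure D5:**
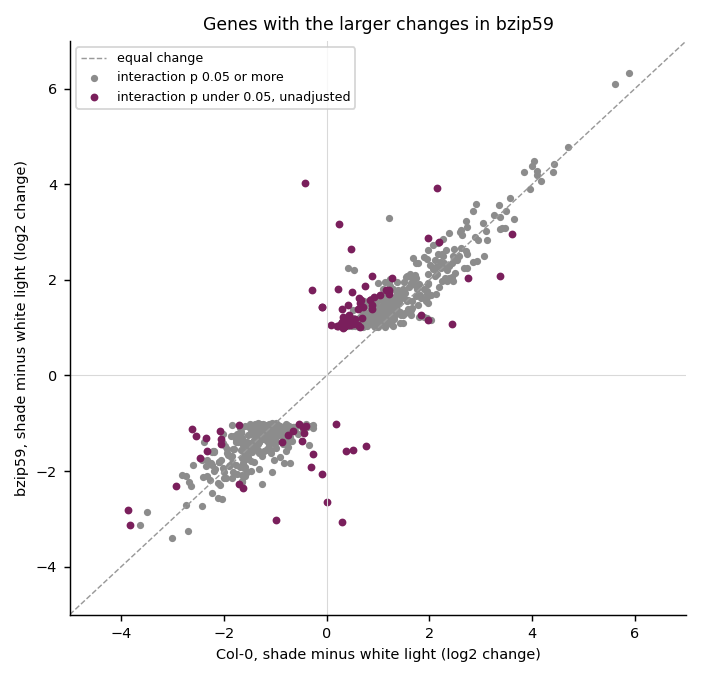
Log2 change by shade in bzip59 (vertical axis) against that in Col-0 (horizontal axis) for the 681 genes called in bzip59 with a change of at least 1 in size, which is why none lies near 0 on the vertical axis. Purple points are the 94 genes with an unadjusted interaction p under 0.05, grey points the others, and the dashed line marks equal change. Most points lie near the line, and 529 of the 681 genes were called in the same direction in Col-0.

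Of the 681 genes called in bzip59 with a change of at least 1 in size, 386 rose and 295 fell. The rises had a median of 1.44 in bzip59 and 1.18 in Col-0, and the falls a median of -1.36 in bzip59 and -1.31 in Col-0. Since these genes were chosen by their change in bzip59, the medians describe them and test nothing. The 94 genes with an unadjusted interaction p under 0.05 failed adjustment over all genes.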

How the data were processed

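The deposited table gives TPM per transcript for 12 libraries made by oligo(dT) selection, and the authors' normalization is that of TPM, per the file headers. The submitters' processing notes name fastp, cutadapt, HISAT2, DESeq2 and TAIR10; versions, strandedness and the program that wrote the TPM are not given in the sources used here. Without strand, reads of overlapping or antisense genes cannot be told apart. Depth is unknown, since TPM keeps no counts. The authors' 4 group means were not used.

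Transcripts were summed per gene with Python 3.11.15, numpy 2.4.6 and pandas 2.3.3. Genes with a mean of 1 TPM over the 6 bzip59 libraries entered a limma 3.58.1 fit (R 4.3.3) of 4 group means to log2(TPM + 1) in all 12 libraries, with a mean-variance trend, Benjamini-Hochberg adjustment and 8 residual degrees of freedom. The interaction is the shade change in bzip59 less that in Col-0. TMM factors trimmed 30% of ratios and 5% of levels. On simulated data for shade against white light in bzip59 the fit over 19591 genes recovered 71 of 100 genes changed by log2 1 and 97 of 100 changed by log2 2, with 12 false calls. The simulated noise was normal and independent between genes and libraries, and changes were planted only in better expressed genes. Deviations shared by many genes of a library, as in white light 2, were not simulated. These figures check the code and do not give the recovery or the false calls in the real libraries.

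Named were the 12 largest called rises and falls among genes whose bzip59 groups did not overlap in TPM, up to 3 called genes per list by p, and the 4 smallest interaction p. A further 40 list members were named after their values were seen. Members and lists were chosen with earlier results of these data known. RefSeq (TAIR10.1) gave names for 32548 genes. Alternatives were other pseudocounts, filters, scalings, a replicate block, fewer libraries and each library left out. Promoters were not analysed here. Figures were drawn with matplotlib 3.10.9.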

Additional observations from a re-analysis of the deposited data

How the results depend on the processing

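Against 1284 rises and 734 falls, a fit of the 6 bzip59 libraries alone called 710 rises, and a log2 size of at least 1 left 386 rises and 295 falls. Falls numbered 1131 with TMM factors and 1130 with the gene length trend removed. Leaving out 1 library gave 535 to 2483 rises and 343 to 851 falls. Without bzip59 white light 2 and shade 2, a choice made after seeing the data, 821 rises were called, and 814 with TMM factors as well. The interaction, called for 0 genes, was called for 2 without the filter (AT2G08485 and AT3G06245) and for 0 with TMM factors alone. With 1 library left out it was called for 0 to 2. There were 2 without Col-0 white light 3, and 1 each without bzip59 shade 2, white light 1 and white light 2. Without both white light 2 and shade 2 it was called for 3, and also for 3 when TMM factors were added to that fit. These 3 were AT4G04465, AT4G06665 and AT5G46085, named after their values were seen. Same-numbered libraries of bzip59 shade and white light deviated with Pearson's r of -0.020, -0.072 and 0.065 across genes. Over the 6 pairs of groups r ran from -0.146 to 0.255, and in no pair of groups were all 3 above the 0.1 that would pair them, so the numbers were not used as pairs. A fit with the replicate block called 1470 rises and 755 falls. Of 5238 values of the 230 genes named by rule 0 reversed, 211 lost a call and 18 gained one. The losses fell in 30 genes. The 230 include the 95 genes listed at 0 in 1 bzip59 light condition, of which 4 were called. The uncalled genes could not lose a call. For them a change of sign counted as reversed only where the alternative called it. Of 958 values of the 40 other named genes 0 reversed, 18 lost a call and 23 gained one. Losses were most frequent without shade 1, where 25 genes named by rule lost their call. The cause of these differences was not tested, and depth cannot be judged from TPM.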

Other observations

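A group of genes was listed at 0 in all 3 libraries of 1 bzip59 light condition. In the other condition their mean was at least 5 TPM, which 1 library alone can bring about. There were 95 such genes among those tested. Of these 4 were called, AT4G06665, AT4G16880, SMR5 and AT2G08750, against 10.3% of all tested genes. Of the 95 genes 73 were small RNA genes (snoRNA, snRNA, tRNA or miRNA), 52 of these snoRNA genes, and 8 were protein coding. In 83 of the 95 the level was above 0 in 1 library alone, and in 71 of these that library was shade 2. The levels of such short transcripts in shade 2 were not tested further. AT2G08750 measured 5.15, 23.1 and 5.45 TPM in bzip59 shade and was listed at 0 in bzip59 white light (limma adjusted p = 0.045). Its call did not hold throughout, with a limma adjusted p from 0.0109 to 0.228 over the alternatives.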
